A study of Mus musculus with 12 samples.

Results

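The 9 genes described here make and regulate the MHC class I display of peptides: the class I heavy chains H2-K1 and H2-D1, their light chain B2m, the peptide transporter subunits Tap1 and Tap2, the loading chaperone Tapbp, the peptide trimming protease Erap1, and the transcriptional regulators Nlrc5 and Irf1. They were chosen by name from the pathway, with earlier results of these data known, and are 9 of the 21671 genes of the deposited table. All 9 were among the 9745 genes with enough signal to be tested. RNA had been sequenced from FLMycER cells, that is, cells of the BALB/c mouse line FL5.12, described as B-cell progenitors and carrying a retroviral vector that expresses MycER throughout. MycER is a MYC protein fused to an oestrogen receptor domain, and it is kept inactive until 4-hydroxytamoxifen (OHT) is added. The 4 groups, of 3 biological replicates each, were untreated cells, cells given 100 nM OHT for 72 h (OHT), cells exposed for 24 h to 135 nM IACS-010759, which blocks complex I of the respiratory chain (IACS), and OHT-primed cells (OHT_IACS), in which 48 h of OHT came before the same exposure. Every group carried MycER, and no OHT-treated cells without MycER are among these libraries, so that the effect of OHT itself and that of MycER activation cannot be told apart. The line is a pool of transduced cells kept in culture without other cells.

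Peptides for class I display are cut by the proteasome, whose interferon-induced variant is the immunoproteasome. They are pumped into the endoplasmic reticulum by the Tap1-Tap2 transporter, trimmed there by Erap1, and loaded on the heavy chain and B2m with the help of Tapbp, which bridges the transporter and the empty heavy chain. Nlrc5 is the class I counterpart of the class II transactivator: it binds no DNA itself and is held at promoters by the factors of the SXY module, a joint arrangement of RFX, CREB/ATF and NF-Y sites. Irf1 is an interferon-induced factor that binds interferon response elements, also in the absence of interferon. In lymphoid and myeloid cells both are induced by interferon-gamma, and both are known for setting the level of the presentation genes.

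Promoter sequences of 7 of the 9 genes were found in RefSeq (assembly GRCm38.p6), each covering 250 bases before and 50 bases after a transcription start; Tap2 and Nlrc5 had no entry. The windows below are shown because they hold the letters by which the regulators are known to reach these genes. In B2m, H2-K1 and H2-D1 the capitals mark an interferon regulatory factor core, in the heavy chains a kappaB match before it, and both ends of an SXY-like arrangement (TGACG, 20 further bases, ATTGG). Only these end sequences and their spacing were searched, and RFX sites were not, so a match does not cover the whole SXY module. B2m also has a kappaB match on the minus strand, which is left in lower case.

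B2m: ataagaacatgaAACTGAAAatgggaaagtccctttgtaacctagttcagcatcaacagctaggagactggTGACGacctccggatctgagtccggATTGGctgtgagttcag
H2-K1: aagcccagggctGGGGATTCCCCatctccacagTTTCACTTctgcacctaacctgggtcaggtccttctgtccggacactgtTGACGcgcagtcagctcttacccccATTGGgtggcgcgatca
H2-D1: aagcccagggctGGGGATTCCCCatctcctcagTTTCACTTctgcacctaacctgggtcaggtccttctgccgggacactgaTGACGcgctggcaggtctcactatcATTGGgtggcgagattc
Irf1: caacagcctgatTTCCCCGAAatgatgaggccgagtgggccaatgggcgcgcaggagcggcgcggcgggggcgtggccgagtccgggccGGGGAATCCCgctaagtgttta
Erap1: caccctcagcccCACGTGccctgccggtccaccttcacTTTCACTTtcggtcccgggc

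The B2m window lies at chr2:122147538-122147650 on the plus strand, the H2-K1 window at chr17:34000347-34000470 on the minus strand, and the H2-D1 window at chr17:35262911-35263034 on the plus strand. The Irf1 window lies at chr11:53769912-53770022 and the Erap1 window at chr13:74639811-74639868, both on the plus strand. In Irf1 the capitals mark a GAS element (TTCNNNGAA), a kind of site through which interferon-gamma acts, and a kappaB match. In Erap1 they mark an E-box (CACGTG), the kind of site MYC binds, and an interferon regulatory factor core. The core was searched as AANNGAAA, and all motifs were searched on both strands, so that in the heavy chains and Erap1 the capitals show its complement.

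The SXY-like arrangement was rare: it was present in 31 of 32851 promoters (0.0944%), which belong to 27 of 27025 genes, and B2m, H2-K1, H2-D1 and the further class I gene H2-M3 were 4 of these genes. Its spacing was chosen after these promoters had been read, so the share describes it and tests nothing. The other motifs were common. The interferon regulatory factor core was present in 23.9% of promoters, kappaB in 8.46%, GAS in 8.30%, the E-box in 7.15%, and CCAAT, whose complement ends the SXY-like arrangement, in 37.4%. Tap1 and Tapbp had no match but CCAAT in these windows. The Tap1 promoter shared 275 of its bases with that of the immunoproteasome gene Psmb9, read in the opposite direction. These are sequences of the C57BL/6J reference, while the cells are BALB/c, whose class I heavy chains are of another haplotype.

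**Figure D1:**
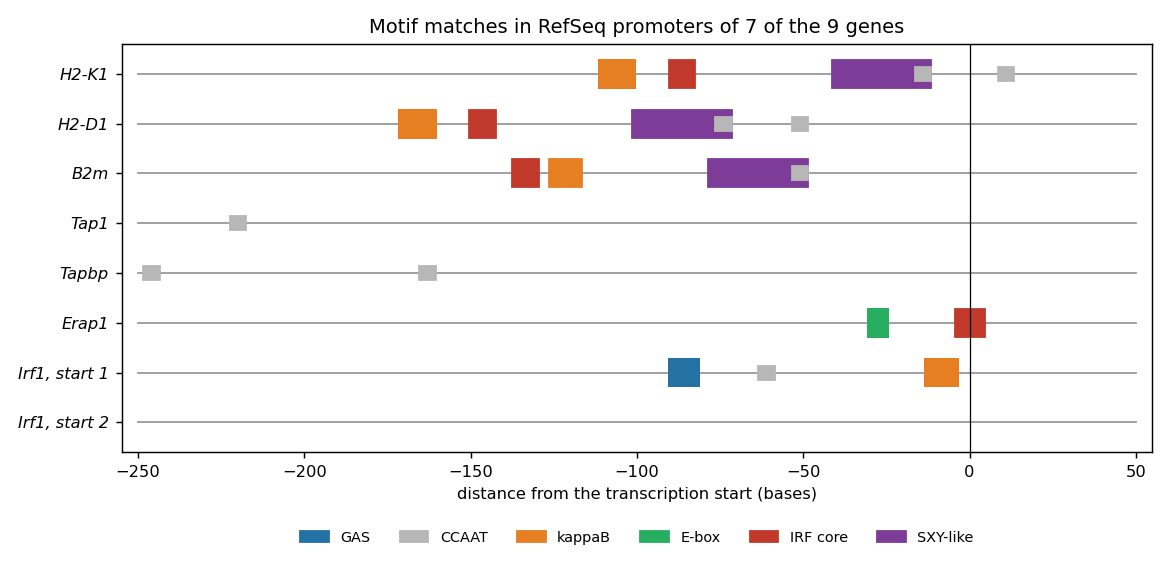
Position of the motif matches in the RefSeq promoters of 7 of the 9 genes, drawn to scale against the distance from the transcription start in bases (Irf1 with both of its starts; the second start of H2-K1 is not drawn). Boxes mark matches on either strand, coloured by motif; the SXY-like arrangement appears in H2-K1, H2-D1 and B2m and in none of the other rows.

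The levels are given as RPKM, reads per kilobase of gene per megaread of the library, after scaling of the libraries to each other. Library totals ran from 10376530 to 14550158 reads, reads on genes from 4199266 to 5762340 and the scaling factors from 0.971 to 1.02, and the 9 genes had between 15 and 781 reads per library. By group, the totals were 13375674, 14550158 and 14281395 reads in untreated cells and 10376530, 13956222 and 10770476 with OHT. They were 13076509, 13729131 and 11133789 with IACS and 11913079, 11804978 and 11792608 with OHT_IACS. RPKM are per length, so levels are set side by side between genes, but reads of abundant genes followed the library total less steeply, so that differences in level between genes are approximate. In untreated cells Tap2 stood highest (20.5 ± 0.245 RPKM, SD, n = 3), followed by B2m (17.0 ± 0.534). Tapbp (12.8 ± 0.560) and H2-D1 (12.5 ± 0.352) came next and were not separated beyond their spread. Erap1 (7.90 ± 0.336), H2-K1 (7.82 ± 0.445) and Tap1 (7.61 ± 0.569) formed a further group without separation. The 2 regulators were the least abundant, with Irf1 at 3.90 ± 0.0275 and Nlrc5 at 1.23 ± 0.120 RPKM. In OHT-treated cells B2m (17.3 ± 2.11) stood above Tap2 (14.3 ± 0.0343), and the range of B2m did not overlap that of Tap2 in either group. Genes with more reads per base followed the library total less steeply: within groups, the median slope of log2 reads on log2 total was 1.42 for genes of up to 0.05 reads per base, among them Nlrc5 and Irf1, 1.06 between 0.2 and 0.4, where B2m and Tap2 lay, and 0.184 above 1 read per base. The slope was 1.36 between 0.05 and 0.1, where H2-K1, Tap1 and Erap1 lay, and 1.25 between 0.1 and 0.2, with H2-D1 and Tapbp. A slope above 1 means lower RPKM in a smaller library, before scaling. What these slopes and totals do to the levels and fold changes of the 9 genes was not tested beyond the fit with the library total as a covariate.

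IACS replicates 1 and 2 were the most alike of the 12 replicate pairs. Over 10541 genes with at least 20 reads in the pair, the chi-square per gene was 1.02, where sampling noise gives 1, and a chi-square test found no difference beyond it (p = 0.0848). The other 11 replicate pairs lay between 1.14 and 4.84. Over the 4002 genes with under 500 reads in the pair it was 1.05, and the chi-square test found a difference beyond sampling noise (p = 0.00999). As the labels also give IACS replicates 1 and 2 as separate samples, both were kept. With the pair averaged into a single sample, the numbers of the 9 genes called in each comparison were the same.

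The labels call the line prolymphocytic and the study uses it as a B-cell progenitor line, but of 10 B-lineage marker genes Pax5, Rag1 and Il7r had no read in any library. The highest B-lineage marker was Cd79b (mean 2.22 RPKM), whereas the erythroid-megakaryocytic factor Gata1 averaged 29.4, the granule protease Prtn3 14.3 and the mast cell protease Cpa3 7.56 RPKM. These were the highest genes of their lists, and other genes of the lists were nearly absent. Over the 12 libraries Cpa3 had 1628 reads, but Mcpt8 72, Fcer1a 1, Ms4a2 1 and Kit 0. Of the granulocyte and monocyte markers Mpo had 4239 reads, Prtn3 2283, Itgam 609, Lyz2 213, Csf1r 36 and Elane 8. Gata1 had 8419 reads, Klf1 2062, Epor 418 and Hbb-b1 138. Among T cell markers the highest was Cd3g with 1.63 RPKM, and Cd3e had no read. Marker sums moved with treatment: granulocyte and monocyte markers summed to 36.7-37.5 RPKM in untreated cells, 19.5-23.5 with OHT, 27.3-33.0 with IACS and 18.5-20.1 with OHT_IACS, and the 2 with enough signal both with and without OHT were lower with OHT. B-lineage markers summed to 4.07-4.68, 2.77-2.83, 3.95-5.05 and 2.20-2.92 RPKM in the same order, and T cell markers to 2.16-2.60, 1.21-1.44, 2.46-2.52 and 1.84-1.999. Mast cell and basophil markers summed to 4.89-5.41, 4.54-5.92, 8.20-8.86 and 11.8-15.2 RPKM, and erythroid markers to 43.4-43.7, 42.7-45.8, 35.8-40.3 and 36.9-38.4. The mast cell and basophil sum is mostly Cpa3, the only gene of its list with enough signal to be tested, and does not describe the list as a class. The part of these shifts in the changes given here was not tested, and in such bulk RNA fewer cells of a type and less RNA per cell cannot be told apart.

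**Figure D2:**
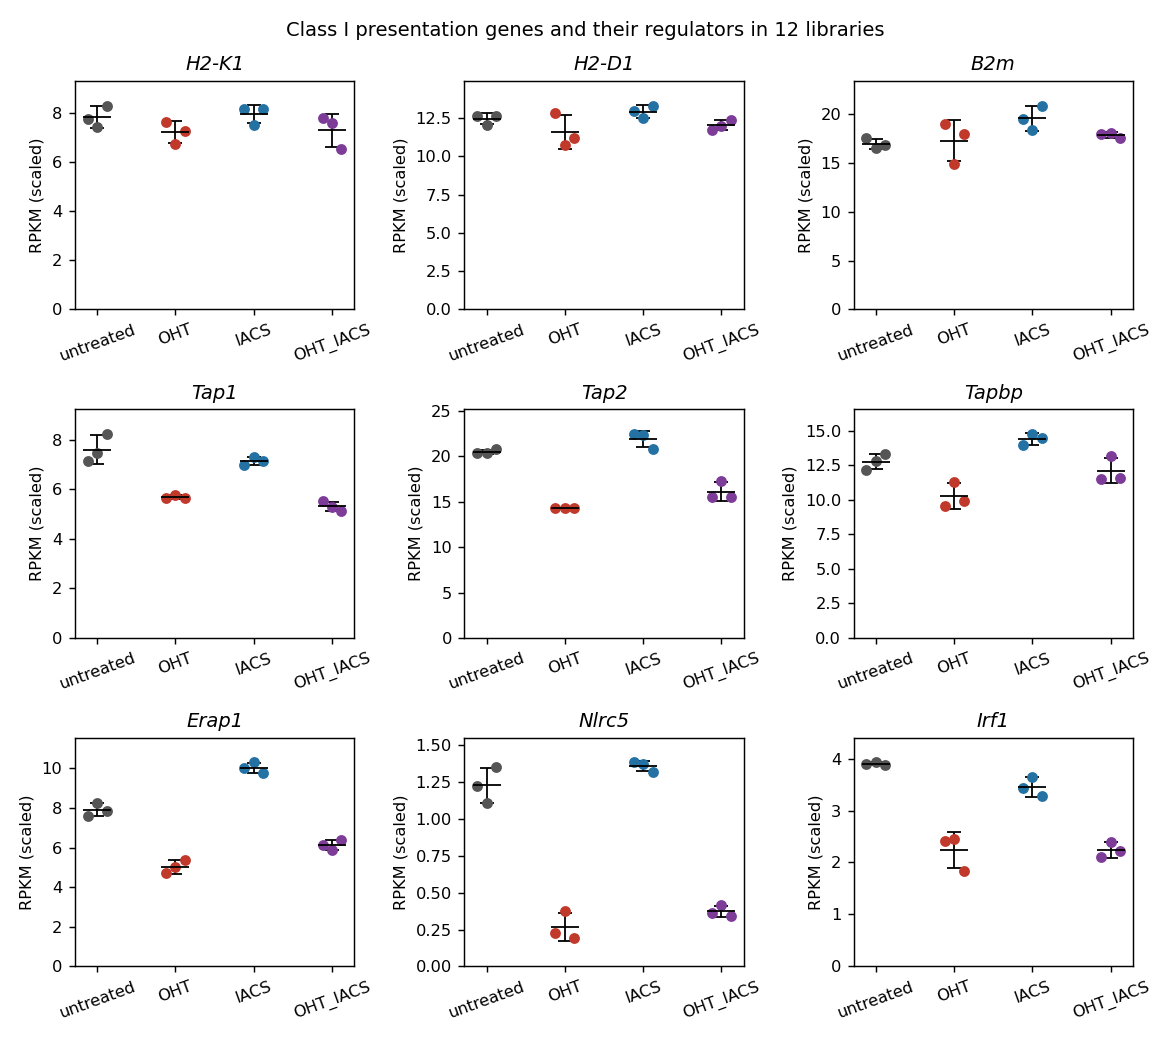
RPKM after scaling of the libraries (vertical axes, from 0) of the 9 genes in the 4 groups; each point is 1 library, the long bar is the mean and the whiskers are 1 SD (n = 3). Tap1, Tap2, Tapbp, Erap1, Nlrc5 and Irf1 lie lower in OHT than in untreated cells without overlap, while H2-K1, H2-D1 and B2m overlap.

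The first comparison asked what activation of MycER does to these genes. OHT lowered both regulators and the peptide supply and loading genes, and no change of the heavy chains or B2m passed the test. Of the 9 genes, 6 were called lower and 0 higher (limma, Benjamini-Hochberg adjusted p under 0.05), against 18.2% of all genes tested called lower, 18.2% called higher and thus 36.4% in either direction. In the same 6 genes the OHT and untreated ranges did not overlap, against 46% of all genes tested (23.5% lower and 22.5% higher). The median log2 fold change of the 9 was -0.41, beside 0.01 for all genes tested. Among the 8 genes that had enough signal both with and without OHT, that is, without Nlrc5, 5 were called lower, with a median of -0.36.

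Nlrc5, the class I transactivator, changed most. Its level was 1.22, 1.11 and 1.35 RPKM in the untreated libraries and 0.228, 0.373 and 0.196 in the OHT libraries, from 112, 111 and 134 reads and from 16, 37 and 15 reads. All 3 OHT libraries lay far below all 3 untreated ones, and OHT replicate 2 was the highest of its group. The ratio of the means was 4.62, and the log2 fold change, computed on log2(RPKM + 0.1), was -1.89 (SE 0.21, adjusted p = 1.76e-05), the 30th lowest among the 9745 genes. Because Nlrc5 is so low, its fold change depended on the pseudocount: it was -0.82 with 1 RPKM added and -2.22 with 0.01, and -2.19 with limma voom on the recovered reads. It reached the minimum level for testing in all 6 libraries without OHT and in 0 with OHT, so it entered the test only through the groups where it is higher.

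Irf1, the interferon regulatory factor, was very even in untreated cells, at 3.90, 3.93 and 3.87 RPKM. With OHT it was at 2.42, 2.45 and 1.84 RPKM, below every untreated library. The log2 fold change was -0.78 (SE 0.11, adjusted p = 8.26e-05), a decrease of 42.0% on the tested scale.

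The peptide transporter fell in both of its subunits. Tap1 was at 7.13, 7.46 and 8.24 RPKM in untreated cells and at 5.64, 5.80 and 5.67 with OHT. Tap2 was at 20.4, 20.3 and 20.8 RPKM in untreated cells and at 14.4, 14.3 and 14.3 with OHT, with hardly any spread between replicates. Neither subunit overlapped between the groups. The log2 fold change was -0.41 for Tap1 (SE 0.06, adjusted p = 0.000183) and -0.51 for Tap2 (SE 0.05, adjusted p = 4.87e-06).

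Tapbp, the chaperone tapasin, fell less, from 12.2, 12.8 and 13.3 RPKM to 9.53, 11.3 and 9.93. Its highest OHT library, replicate 2, came close to the lowest untreated one. The log2 fold change was -0.32 (SE 0.07, adjusted p = 0.00281), and with library totals (log2) entered as a covariate it was -0.21 and no longer passed (adjusted p = 0.0764).

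Erap1, the protease that trims peptides to class I length, fell from 7.61, 8.27 and 7.84 RPKM to 4.70, 4.99 and 5.39. The groups were well apart. The log2 fold change was -0.64 (SE 0.06, adjusted p = 4.59e-06), or a decrease of 36.0%.

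The display molecules themselves did not pass the test. B2m was at 17.6, 16.5 and 16.8 RPKM in untreated cells and at 19.0, 14.9 and 17.99 with OHT, where the spread was larger than any difference (log2 fold change 0.02, 95% interval -0.14 to 0.18). H2-K1 was at 7.73, 7.42 and 8.30 RPKM against 7.63, 6.75 and 7.27 (log2 fold change -0.11, 95% interval -0.27 to 0.05). H2-D1 was at 12.7, 12.1 and 12.7 RPKM against 12.9, 10.8 and 11.2 (log2 fold change -0.10, 95% interval -0.24 to 0.03). In each the groups overlapped, and in the fit as reported the intervals exclude a fall as large as that of Tap1. The call for H2-D1 turned on OHT replicate 1, the highest of its group: without it the value was -0.18 (adjusted p = 0.0165), and it also passed with weights per library (-0.13, adjusted p = 0.0139). With the library total as a covariate B2m came out at -0.17 (adjusted p = 0.0205) and H2-D1 at -0.21 (adjusted p = 0.0363). No intervals are given here for that fit, so the exclusion does not extend to it. The submitters' notes name the mm9 build, which is of C57BL/6J, while these BALB/c cells carry other class I alleles, and the heavy chain genes have near-identical copies, so that reads of H2-K1 and H2-D1 may be lost or shared with their relatives. How that affects these levels was not tested.

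The second comparison of the same kind asked for the effect of OHT in cells under IACS-010759, and shares no library with the first. Both take their spread from the same fit of all 12 libraries, so their p-values are not independent. Again 6 of the 9 genes were called lower and 0 higher, where 14.3% of all genes were called lower, 12.3% higher and 26.5% in either direction, and they were the 6 called in the first comparison. Ranges did not overlap for 8 genes, all lower in OHT_IACS, against 42.3% of all genes tested (22.2% lower and 20.1% higher). Without Nlrc5, which again had enough signal only in libraries without OHT, 5 of 8 were called lower, with a median log2 fold change of -0.34. H2-K1 was the exception, at 8.18, 7.53 and 8.18 RPKM with IACS and 7.78, 7.58 and 6.54 with OHT_IACS.

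Nlrc5 was at 1.38, 1.37 and 1.32 RPKM with IACS and at 0.362, 0.417 and 0.344 with OHT_IACS. No library came near the other group, and the log2 fold change was -1.62 (SE 0.21, adjusted p = 9.60e-05), in a test that it entered only through its higher group, as in the first comparison. Irf1 went from 3.43, 3.65 and 3.28 RPKM to 2.10, 2.40 and 2.22, a log2 fold change of -0.60 (SE 0.11, adjusted p = 0.000951). Neither regulator overlapped between the groups.

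Erap1 was at 9.99, 10.3 and 9.78 RPKM with IACS and at 6.10, 5.88 and 6.38 with OHT_IACS, a log2 fold change of -0.70 (SE 0.06, adjusted p = 2.99e-06). Tap1 went from 6.99, 7.31 and 7.13 RPKM to 5.52, 5.29 and 5.14 (log2 fold change -0.42, SE 0.06, adjusted p = 0.000219). Tap2 went from 22.5, 22.4 and 20.9 RPKM to 15.6, 17.3 and 15.5 (log2 fold change -0.44, SE 0.05, adjusted p = 2.90e-05). In these 3 genes the highest OHT_IACS library lay below the lowest IACS library. Tapbp showed the smallest called change, from 13.9, 14.8 and 14.5 RPKM to 11.5, 13.1 and 11.6 (log2 fold change -0.25, SE 0.07, adjusted p = 0.0152). The call was lost without IACS replicate 2 (-0.23, adjusted p = 0.0541), OHT_IACS replicate 1 (-0.22, adjusted p = 0.0631) or OHT_IACS replicate 3 (-0.22, adjusted p = 0.0600), while the fold change stayed close to its value.

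B2m was at 19.5, 18.4 and 20.9 RPKM with IACS and 18.03, 18.03 and 17.5 with OHT_IACS, and H2-D1 at 13.0, 12.5 and 13.3 against 11.8, 11.96 and 12.4. Both were lower without overlap, by 0.13 and 0.10 on the log2 scale, and neither passed the test (adjusted p = 0.227 and 0.243). For B2m this held except with the library total as a covariate, where it was -0.19 (adjusted p = 0.00275).

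**Figure D3:**
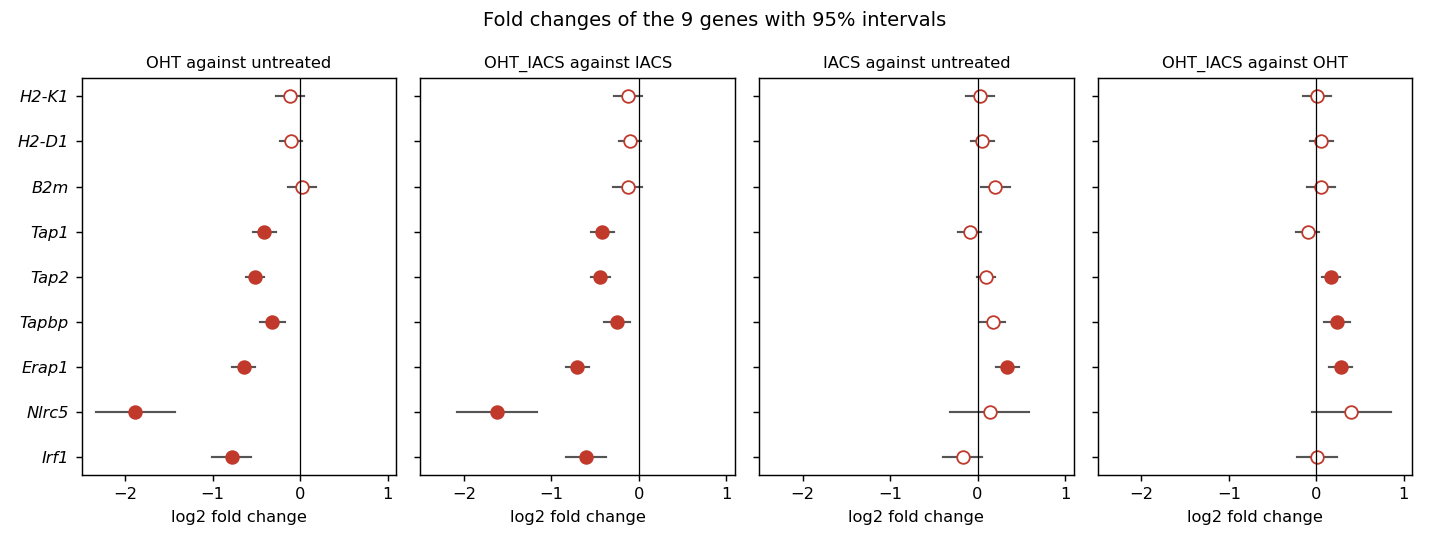
Log2 fold change (horizontal axes) of the 9 genes in 4 comparisons, with 95% intervals of the limma fit as lines; filled points passed the adjusted p of 0.05 and open points did not. In both OHT comparisons 6 genes lie left of 0 with filled points, Nlrc5 farthest at -1.89 and -1.62, while in the IACS comparisons Erap1 is filled in both, at 0.34 and 0.28.

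The next question was what inhibition of complex I does to these genes. In nonprimed cells 1 of the 9 was called higher and 0 lower, where 8.15% of all genes were called higher, 7.74% lower and 15.9% in either direction. That gene was Erap1, which rose from 7.61, 8.27 and 7.84 RPKM to 9.99, 10.3 and 9.78, without overlap. Its log2 fold change was 0.34 (SE 0.06, adjusted p = 0.00257), and 0.33 (adjusted p = 0.0118) with IACS replicates 1 and 2 averaged. B2m, Tap2 and Tapbp were also higher in all 3 IACS libraries than in any untreated one, by 0.20, 0.09 and 0.17 on the log2 scale, but missed the threshold (adjusted p = 0.0816, 0.217 and 0.106). With Erap1 these are 4 genes higher and, with Irf1, 1 lower without overlap, where 19.9% of all genes were higher, 18.7% lower and 38.6% either way. B2m passed in 7 of 25 alternative analyses, Tapbp in 3 and Tap2 in 1. Irf1 was lower without overlap, by 0.17, and did not pass (adjusted p = 0.301). Nlrc5 gave 0.14 with a 95% interval from -0.31 to 0.59, so that at its depth only a large change could have been seen. Tap1 gave -0.09, H2-K1 0.03 and H2-D1 0.05.

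In OHT-primed cells IACS-010759 was followed by higher levels of 3 of the 9 genes and lower levels of 0, where 11.9% of all genes were called higher, 11.8% lower and 23.7% in either direction. Those 3 were higher and Tap1 was lower without overlap, where 17.8% of all genes were higher, 19.1% lower and 36.9% either way. Erap1 rose from 4.70, 4.99 and 5.39 RPKM with OHT to 6.10, 5.88 and 6.38 with OHT_IACS (log2 fold change 0.28, SE 0.06, adjusted p = 0.00579). Tap2 rose from 14.4, 14.3 and 14.3 to 15.6, 17.3 and 15.5 RPKM (log2 fold change 0.17, SE 0.05, adjusted p = 0.0249). Tapbp rose from 9.53, 11.3 and 9.93 to 11.5, 13.1 and 11.6 RPKM (log2 fold change 0.24, SE 0.07, adjusted p = 0.0233). This comparison shares the 3 OHT libraries with that of OHT and untreated cells, so that its values are not independent of the falls given there. Every OHT_IACS value of Erap1 and Tap2 was still below every untreated value.

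The calls for Tap2 and Tapbp were not firm. Both were lost without OHT replicate 1 (adjusted p = 0.0551 and 0.0958), without OHT replicate 3 (0.0642 and 0.0778) and without OHT_IACS replicate 2 (0.0993 and 0.0945), and with RPKM as deposited or the compared groups alone, whereas Erap1 kept its call in all 25 alternatives. Nlrc5 went from 0.228, 0.373 and 0.196 to 0.362, 0.417 and 0.344 RPKM, with overlap, and did not pass (log2 fold change 0.40, SE 0.21, adjusted p = 0.180). It passed without OHT replicate 2, at 0.61 (adjusted p = 0.0346), and with weights per library, at 0.62 (adjusted p = 0.0112). Irf1 gave 0.01, B2m 0.05, H2-K1 0.01 and H2-D1 0.06, all with overlap. Tap1 was lower without overlap, by 0.10, and did not pass (adjusted p = 0.251).

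Whether the response to IACS-010759 differed with OHT was tested as the interaction. Of the 9 genes, 0 passed in the limma fit, 0 in any of the alternatives that allow the test, voom on the recovered reads among them, and 0 had an unadjusted p under 0.05 in the limma fit. Across all genes 14 were called (0.144%) and 1240 had an unadjusted p under 0.05. The widest 95% interval was that of Nlrc5, -0.37 to 0.90 on the log2 scale, and the narrowest that of Tap2, -0.08 to 0.23. The adjusted p-values of the 9 ran from 0.571 for B2m to 0.990 for H2-D1, which does not show that the responses were equal.

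**Figure D4:**
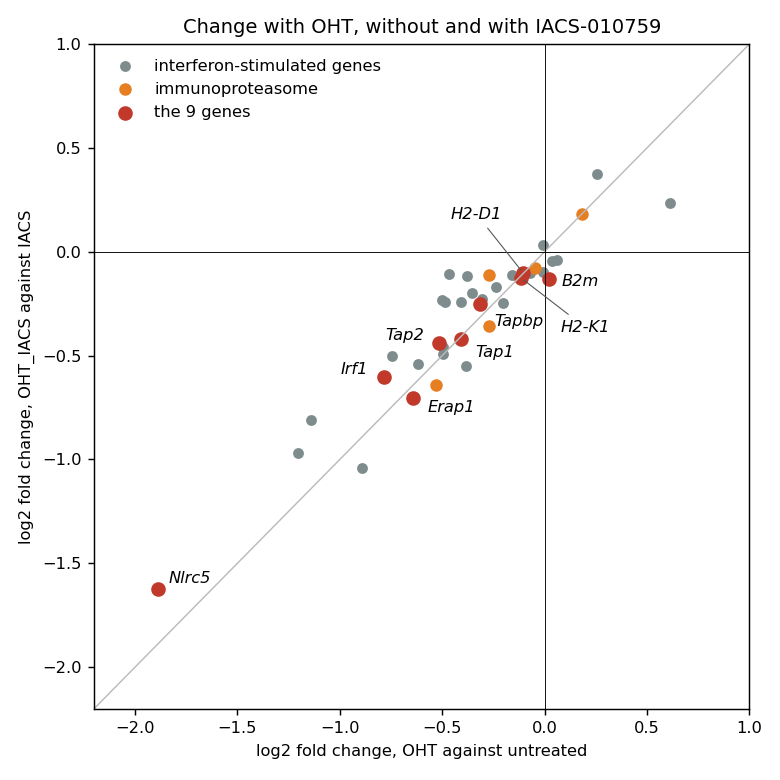
Log2 fold change with OHT in cells without IACS-010759 (horizontal axis) and with it (vertical axis), for the 9 genes (red, named), the immunoproteasome genes (orange) and the interferon-stimulated genes tested (grey); the line marks equal change and the axes have the same range. The axes share no library; Nlrc5 lies farthest from 0, at -1.89 and -1.62, and H2-K1, H2-D1 and B2m lie near 0 on both.

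The genes around the 9 were described from lists, given here with their counts. These counts stand beside the shares of all genes tested that were called higher and lower, which were 18.2% and 18.2% for OHT, 8.15% and 7.74% for IACS, 11.9% and 11.8% for OHT_IACS against OHT, and 12.3% and 14.3% for OHT_IACS against IACS. The lists are small, and nothing is called particular to a list from such counts. Of 5 other class I heavy chain genes that could be tested, H2-T23, a nonclassical chain, fell with OHT by 0.37 on the log2 scale (adjusted p = 0.00104), and H2-T24 by 0.35 (adjusted p = 0.0165), with overlapping ranges and the call lost in 5 of 24 alternatives. H2-M3, which presents formylated peptides and carries the SXY-like arrangement, rose instead, from 3.47, 4.46 and 4.24 RPKM to 6.34, 6.42 and 6.01 (log2 fold change 0.62, adjusted p = 0.000263). H2-M3 also rose with IACS in nonprimed cells, to 6.50, 6.56 and 5.87 RPKM (log2 fold change 0.63, adjusted p = 0.000757). In OHT_IACS cells it stood at 6.79, 8.45 and 7.81 RPKM, above OHT by 0.29 (adjusted p = 0.0449) and above IACS by 0.28 (adjusted p = 0.0485), calls that were each lost in 14 of 25 alternatives. The OHT_IACS libraries were lower than IACS for H2-T24 (-0.31, adjusted p = 0.0382) and H2-T23 (-0.21, adjusted p = 0.0406, overlapping ranges), lost in 11 and 12 alternatives. The same uncertainty of copies and alleles applies to these genes.

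The 3 catalytic subunits of the immunoproteasome were called lower with OHT, Psmb9 least firmly. Psmb10 went from 39.0, 37.2 and 35.2 RPKM to 27.9, 25.2 and 24.1 (log2 fold change -0.53, adjusted p = 0.000137). Psmb8 went from 50.5, 49.4 and 49.6 RPKM to 44.4, 38.4 and 41.3 (-0.27, adjusted p = 0.00972), and Psmb9 from 22.5, 24.7 and 23.5 to 22.4, 16.3 and 20.2 (-0.27, adjusted p = 0.0281). The Psmb9 ranges nearly touch, OHT replicate 2 lies lowest, and the call was lost in 5 of 25 alternatives. The activator subunit Psme2 rose by 0.18 (adjusted p = 0.0228, lost in 6 of 25 alternatives), so that of 5 genes 3 were lower and 1 higher. Under IACS-010759, OHT again lowered Psmb10 (-0.64, adjusted p = 4.49e-05) and Psmb8 (-0.36, adjusted p = 0.00234), and Psme2 was higher (0.18, adjusted p = 0.0324, lost in 5 of 25). IACS raised Psme2 (0.23, adjusted p = 0.0149) and the partner subunit Psme1 (0.20, adjusted p = 0.0299, lost in 6 of 25) in nonprimed cells, and in OHT-primed cells by 0.23 (adjusted p = 0.0119) and 0.17 (adjusted p = 0.0475, a call lost in 16 of 25 alternatives).

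Of 4 constitutive proteasome genes, the counterparts of those above, 2 rose and 0 fell with OHT. Psmb7, the counterpart of Psmb10, rose by 0.29 (adjusted p = 0.0179, lost in 5 of 25 alternatives), and Psme3 rose by 0.18 (adjusted p = 0.0407, lost in 13 of 25 alternatives). Over the alternatives the values ran from 0.06 to 0.40 for Psmb7 and from 0.05 to 0.23 for Psme3. Psme3 had 0.698 reads per base, where the median slope on the library total was 0.688, and what this does to its values was not tested. In the other 3 pairwise comparisons 0 of the 4 were called by limma, and the smallest adjusted p was 0.169, for Psme3 in OHT_IACS against IACS. Among 5 other loading and folding genes, Pdia3, the thiol oxidoreductase of the loading complex, rose with OHT by 0.21 (adjusted p = 0.0119). The abundant lectin chaperones Calr and Canx were at 90.4 and 49.6 RPKM in untreated cells and at 102 and 55.7 with OHT, and did not pass (adjusted p = 0.197 and 0.105).

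The DNA-bound partners of Nlrc5 are the factors of the SXY module. Of these 8, Atf1, a CREB family member, rose with OHT by 0.16 (adjusted p = 0.0120), and 0 fell. Rfx5, the large RFX subunit, was higher in OHT_IACS than in OHT by 0.29 (adjusted p = 0.00351). Nfyc, the most abundant of them, was at 20.4 RPKM in untreated cells and 22.3 with OHT and did not pass (adjusted p = 0.107).

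**Figure D5:**
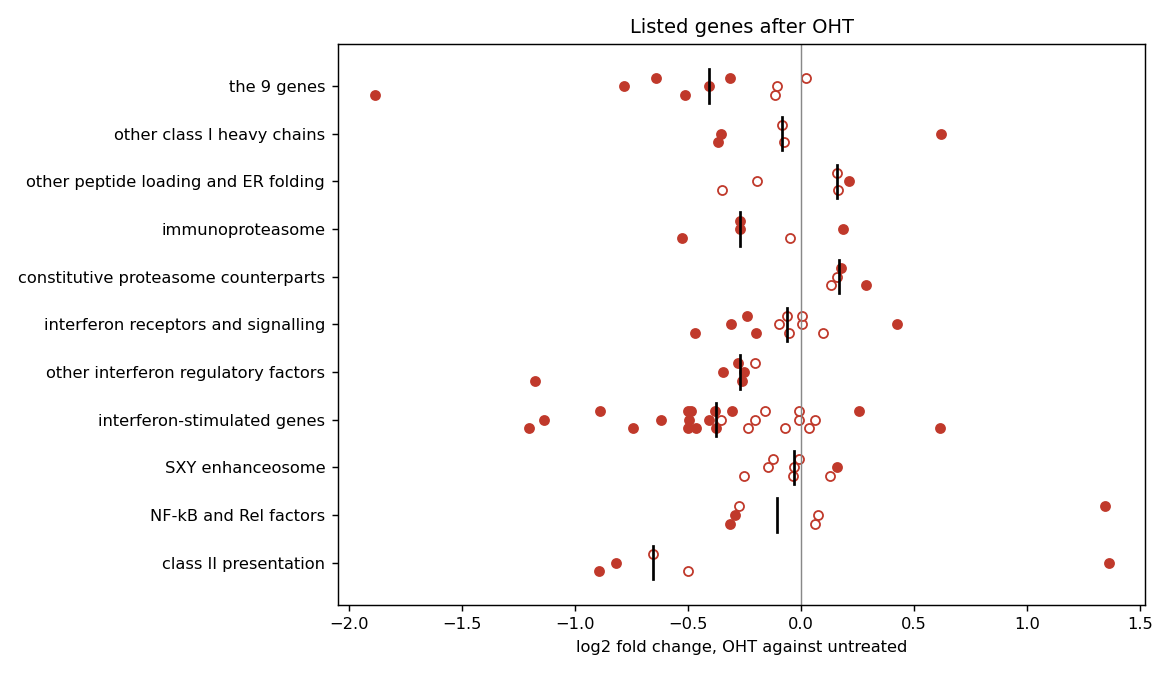
Log2 fold change, OHT against untreated (horizontal axis), of the tested genes of each list; filled points passed the adjusted p of 0.05, open points did not, and the black bar is the median of the list. Nlrc5 at -1.89 is the leftmost point, the immunoproteasome list has 3 filled points left of 0 and 1 right of it, and the interferon-stimulated genes have 14 left and 2 right.

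Upstream of Irf1 and Nlrc5, 11 of 12 interferon receptor and signalling genes could be tested, of which 1 rose and 4 fell with OHT. The receptor chain Ifnar2 rose by 0.42 (adjusted p = 0.000449), whereas the kinases Tyk2 (-0.47, adjusted p = 0.00125) and Jak2 (-0.24, adjusted p = 0.00726) fell. Under IACS-010759 2 of the 11 rose and 3 fell with OHT. OHT lowered Jak2 (-0.21, adjusted p = 0.0175) and raised Ifnar2 (0.43, adjusted p = 0.000554) and Socs1, an inhibitor of JAK kinases (0.59, adjusted p = 0.000997). IACS alone raised 3, among them the phosphatase Ptpn2 (0.23, adjusted p = 0.0140) and Jak1 (0.16, adjusted p = 0.0485), a call lost in 14 of 25 alternatives. In OHT-primed cells IACS raised Socs1 by 0.55 (adjusted p = 0.00232) and Ifnar2 by 0.22 (adjusted p = 0.0393, lost in 11).

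Of 6 genes tested from a list of other interferon regulatory factors and their corepressors, 5 fell with OHT and 0 rose, 3 of the 5 being interferon regulatory factors. Irf5, a factor of Toll-like receptor signalling, went from 4.35, 4.92 and 4.27 RPKM to 1.53, 2.33 and 2.05 (log2 fold change -1.18, adjusted p = 5.14e-05). Irf2bp2 (-0.25, adjusted p = 0.000761) and Irf2bp1 (-0.28, adjusted p = 0.00686), corepressors that bind Irf2, and Irf3 (-0.26, adjusted p = 0.00962) fell less. Irf5 was at 5.18, 4.92 and 4.27 RPKM with IACS and at 3.22, 2.85 and 2.26 with OHT_IACS (-0.78, adjusted p = 0.00182), and was the only 1 of the 6 called in that comparison. Against OHT alone, OHT_IACS was higher for Irf2bp2 (0.21, adjusted p = 0.00543) and for Irf5 (0.48, adjusted p = 0.0331), the latter with overlapping ranges and the call lost in 6 of 24 alternatives. Irf2bp1 was lower with IACS in nonprimed cells, by 0.30 (adjusted p = 0.00971).

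The deposited values cover 52 interferon-stimulated genes. Of these, 25 could be tested, and with OHT 14 were called lower and 2 higher. Among the 22 that had enough signal both with and without OHT the counts were 13 and 2, with a median log2 fold change of -0.38. The counts describe only genes above the minimum level. Of the genes too low to be tested, Isg15 had 29 reads over the 12 libraries, Ifit1 20, Ifit3 16 and Rsad2 3, while Ddx58 had 623. Lgals3bp, a secreted glycoprotein, went from 15.2, 17.3 and 16.9 RPKM to 6.32, 7.17 and 7.81 (log2 fold change -1.21, adjusted p = 2.15e-07). Igtp, a GTPase induced by interferon-gamma, fell by 1.14 (adjusted p = 0.000128), the RNA-dependent kinase Eif2ak2 by 0.50 (adjusted p = 6.46e-05), and Uba7, the enzyme that activates Isg15, by 0.46 (adjusted p = 7.50e-05). Igtp is low: it had 39, 67 and 60 reads in untreated cells and 18, 22 and 18 with OHT. In the OHT group it lay under the minimum of 1 RPKM, and it is counted among the 22 through its OHT_IACS libraries. Its log2 fold change ran from -1.32 to -0.69 over the alternatives. The most abundant genes of the list, Ifitm3, Ifitm1 and Ifitm2, did not pass (adjusted p = 0.796, 0.589 and 0.960 for Ifitm1, Ifitm2 and Ifitm3). Ifitm3 was at 86.3 ± 3.80 RPKM in untreated cells and 86.4 ± 11.4 with OHT (SD, n = 3). With over 1 read per base it is among the genes whose reads barely followed the library total (median slope 0.184), and what this does to its values was not tested.

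With IACS present OHT lowered 8 of the 25 and raised 1, and among the 22 with enough signal on both sides it lowered 7 and raised 1. Lgals3bp fell by 0.97 (adjusted p = 2.36e-06), Eif2ak2 by 0.49 (adjusted p = 0.000113), Epsti1 by 1.04 (adjusted p = 0.000658) and the guanylate-binding protein gene Gbp7 by 0.55 (adjusted p = 0.000750). IACS in nonprimed cells raised 1, Lgals3bp (0.31, adjusted p = 0.0203), and lowered 1, Ifit2 (-0.40, adjusted p = 0.0153). With IACS replicates 1 and 2 averaged, the count raised was 0. In OHT-primed cells 4 were higher and 3 lower (3 and 3 of the 22): Lgals3bp rose by 0.55 (adjusted p = 0.000484), Uba7 by 0.36 (adjusted p = 0.00121) and Ifi27 by 0.36 (adjusted p = 0.0183), while Ube2l6, the E2 enzyme for Isg15, fell by 0.53 (adjusted p = 0.00399).

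The NF-kappaB family is the one that binds kappaB sites. Of 6 tested, OHT lowered Nfkb1 (-0.29, adjusted p = 0.000300) and the inhibitor Nfkbie (-0.31, adjusted p = 0.0411, overlapping ranges, lost in 13 of 24 alternatives). It raised Relb, from 0.327, 0.471 and 0.453 RPKM to 1.16, 1.25 and 1.201 (log2 fold change 1.35, adjusted p = 0.000390), a gene that reached the minimum level only with OHT and so had to differ. IACS raised Nfkb1 in nonprimed cells (0.27, adjusted p = 0.00186) and in OHT-primed cells (0.37, adjusted p = 0.000138). In OHT-primed cells Rela was also higher (0.20, adjusted p = 0.0289, lost in 6 of 25 alternatives). Relb was at 0.801, 0.714 and 0.578 RPKM with OHT_IACS, below the OHT libraries through which alone it was tested. OHT lowered Nfkb1 under IACS-010759 as well (-0.19, adjusted p = 0.00735).

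Of the class II pathway, the classical chains H2-Aa and H2-Ab1 had no read in any library, and 5 of 10 genes could be tested, of which 1 rose and 2 fell with OHT and 0 were called with IACS in nonprimed cells. Cd74, the invariant chain, rose with OHT from 0.968, 0.937 and 1.49 RPKM to 2.53, 3.08 and 3.47 (log2 fold change 1.36, adjusted p = 8.24e-05), and under IACS-010759 from 1.06, 1.51 and 1.23 to 3.51, 4.404 and 3.45 (1.51, adjusted p = 5.42e-05). With OHT the peptide editor subunit H2-DMb1 fell by 0.82 (adjusted p = 0.000308), and H2-Oa, which is not part of the editor, by 0.90 (adjusted p = 0.00262). H2-DMb1 also fell under IACS-010759 (-0.54, adjusted p = 0.00763), and H2-Oa was higher in OHT_IACS than in OHT (0.74, adjusted p = 0.0136).

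The genes whose log2 levels followed each of the 9 most closely were sought over the 12 libraries, which share the 4 conditions, and are given as a description. For Nlrc5 they were Abhd4 (Pearson r 0.994), Nfam1 (0.990) and 2900026A02Rik (0.987), and for Irf1 they were Ltb (0.985), Dnajc22 (0.980) and Tor4a (0.980). For Tap2 they were Spns3 (0.989), Slc39a11 (0.986) and Snap47 (0.986), and for Tap1 Rab27a (0.976), H6pd (0.9751) and Maged2 (0.971). Ltb, closest to Irf1, encodes a chain of lymphotoxin. For Erap1 they were Anxa3 (0.987), Wls (0.985) and Klhl6 (0.983), and for Tapbp Map4k1 (0.973), Itgal (0.970) and Mpnd (0.964). For B2m, Cdca7, Vps25 and the interferon-stimulated gene Ifitm3 had r of 0.973, 0.970 and 0.950, and 0.958, 0.960 and 0.956 after the mean of each condition was taken off. The same step left 0.349 for Anxa3 (Erap1), 0.455 for Rab27a and 0.600 for H6pd (Tap1), 0.791 for Abhd4 (Nlrc5), 0.840 for Ltb (Irf1), 0.800 for Spns3 (Tap2) and 0.942 for Map4k1 (Tapbp). What remains after this step are differences between replicates, whose library totals also differ. The part of the totals in these r was not tested. For H2-K1 the closest were Exosc5 (0.902), Pus1 (0.895) and Cyba (0.882), and for H2-D1 Sec11c (0.915), Lamtor4 (0.909) and Fis1 (0.906).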

How the data were processed

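Total RNA of FLMycER cells was sequenced with a stranded kit after depletion of ribosomal RNA, in 4 conditions with 3 libraries each, grouped by the sample labels. The authors deposited RPKM of 21671 genes per library. The submitters' processing notes name TopHat2 2.0.8, SAMtools, featureCounts 1.4.5-p1, DESeq2 and the mm9 build; whether strand was used in counting is not given in the sources used here. The deposited columns with the authors' own comparisons (a log2 change and an adjusted p-value for each treated group) were not used. RPKM of 15451 of 15451 genes above 0 were whole multiples of a single read (tolerance 0.001), which gave reads, gene lengths and library totals.

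RPKM were scaled by the median ratio to the geometric mean, and genes of at least 1 RPKM in at least 3 libraries were compared on log2(RPKM + 0.1) with limma 3.58.1 in R 4.3.3, in 1 fit of all 12 libraries (8 residual degrees of freedom) with a mean-variance trend. There were 4 pairwise comparisons and the interaction; tests were two-sided, adjusted by Benjamini-Hochberg over 9745 genes in each, with a threshold of 0.05. In simulated data of the OHT comparison 196 of 200 genes given a log2 change of 1 passed, as did 12 of 9545 unchanged genes. The simulated reads had the same dispersion for all genes and followed the library totals in proportion, unlike the real reads. This checks the procedure and does not give the sensitivity or error rate of the tests on the real data. P-values measure the spread between these libraries, described as biological replicates.

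The 9 genes and all lists were chosen with earlier results of these data known. Outside the 9, at most the 4 called genes with the smallest adjusted p of each list and comparison are named, or the most abundant where fewer than 2 were called, with Ifitm1 to Ifitm3 chosen after their values were seen. For each of the 9 the 3 other genes of highest Pearson r are named. Listed genes that were not in the table (7) were not used here, and some genes of the lists are counted but not reported here by name. Alternatives were 12 other analyses, 12 that each left out a library, and, chosen after seeing the data, 1 with IACS replicates 1 and 2 averaged. Promoters were read from RefSeq tables (GRCm38.p6); no mm9 coordinates were used. Figures were drawn with python 3.11.15 and matplotlib 3.10.9.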

Additional observations from a re-analysis of the deposited data

How the results depend on the processing

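Of 1105 values of the 9 genes under 25 alternatives, 1033 kept their direction and side of the threshold, 14 lost a call, 17 gained one and 41 changed sign. With OHT against untreated cells, Tap1, Tap2, Nlrc5, Irf1 and Erap1 kept their calls in every alternative that tested them; Nlrc5 and Irf1 were not tested with a minimum of 5 RPKM, and the log2 fold change of Nlrc5 ran from -2.22 to -0.82. Replicate numbers did not pair the samples (correlations of -0.17 to 0.10 over 18 pairs of the same number), and with the replicate block the counts of the 9 called were the same, 6, 1, 3, 6 and 0, while 7 genes were called in the interaction in place of 14. Of the 9, IACS against untreated called 2 with RPKM as deposited, quantile normalization, the library total as covariate or voom, 4 with weights per library and 3 with the compared groups only (1 to 2 when a library was left out); OHT_IACS against OHT called 1 with RPKM as deposited or the compared groups only (1 to 4). Over all genes, weights per library called 5631, 2734, 4199 and 1066 genes for OHT, IACS, OHT_IACS against OHT and the interaction, and the covariate 2351 for OHT. Leaving out a library gave 951 to 1809 for IACS (951, 998 and 1026 without untreated replicates 1 and 2 and IACS replicate 3), 1524 to 2951 for OHT_IACS against OHT (1524 without OHT_IACS replicate 3) and 3 to 130 for the interaction (130 without OHT replicate 2). The interaction called 7 genes without a filter, 5 with RPKM as deposited or the covariate, 34 with quantile normalization, 25 with voom and 8 with the IACS pair averaged. The causes were not tested.

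Sign changes were of values within 0.2 of 0, none of them called in the fit as reported. Under quantile normalization B2m with OHT was -0.00317, H2-K1 -0.00196 and Irf1 -0.0512 for OHT_IACS against OHT, and the interaction of H2-D1 -2.64e-05. With the covariate B2m with OHT was -0.174, H2-K1 -0.0245 and H2-D1 -0.00881 with IACS, Irf1 -0.00139 for OHT_IACS against OHT, and the interactions of H2-K1 0.0480 and Tapbp -0.00790. With weights per library B2m was -0.00108 and H2-K1 -0.00726 for OHT_IACS against OHT, and the interaction of Tap1 0.000854. The interaction of H2-K1 was 0.00155 with voom, and that of H2-D1 -0.0250 with RPKM as deposited and -0.00760 with the pair averaged. Leaving out a library gave -0.0473 to 0.123 for B2m with OHT, -0.0100 to 0.0696 for H2-K1 with IACS, and for OHT_IACS against OHT -0.0458 to 0.121 for B2m, -0.0337 to 0.0898 for H2-K1 and -0.119 to 0.0809 for Irf1. It gave -0.0602 to 0.0634 for the interaction of H2-K1, -0.0466 to 0.0762 for H2-D1 and -0.0694 to 0.0332 for Tap1.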
